A study of Mus musculus with 24 samples.

Results

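The genes for the subunits of the transcription factor NF-kB and for the inhibitors that NF-kB itself switches on were followed in mouse splenic B cells stimulated through the B cell receptor. The set has 10 genes. The subunit genes are Nfkb1, Nfkb2, Rel, Rela and Relb, and the inhibitor and cofactor genes are Nfkbia, Nfkbie, Nfkbiz, Bcl3 and Tnfaip3. A gene was measured through array probe sets (groups of probes against the same transcript) whose only gene symbol in the probe table was that gene, and the probe set with the highest mean over the 24 arrays represented it. Of the 10 genes, 9 had such a probe set, with 18 probe sets in all, among 14318 genes tested, while Nfkb1 had none and was not analysed here.

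The arrays hold RNA of B cells from the spleens of C57BL/6 mice, with an age label of 6-8 weeks. In KO cells exon 3 of Nfatc1, flanked by loxP sites, had been removed by a Cre recombinase expressed from the B cell gene Cd79a (mb-1), and WT cells came from control mice, for which the labels give neither Cre nor floxed allele. Cells were treated with anti-IgM, an antibody against the IgM of the B cell receptor that triggers it, for 0, 3, 8 or 16 h and enriched with magnetic beads, with 3 biological replicates in each of the 8 groups. NFATc1 is a transcription factor activated by calcium and calcineurin below that receptor, and the labels do not say whether arrays with the same replicate number share mice, so p-values measure the spread between these arrays.

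NF-kB works as dimers of its subunits, which inhibitor proteins of the IkB family hold in the cytoplasm. In B cells receptor signals pass through protein kinase C beta, BCL10 and MALT1 to the IkB kinase, which marks the inhibitors for destruction and frees the dimers to enter the nucleus. The dimers then transcribe their own inhibitors and some of their own subunits along with genes for survival and division, a negative feedback that limits the response.

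Stretches of promoter are shown for 6 of the measured genes because the letters that NF-kB dimers bind, the kappa B consensus of 10 bases, occur in them. The windows run from 250 bases before to 50 after each annotated start in RefSeq (mouse build GRCm38.p6), which covered 7 of the genes with 10 windows, and both strands were searched. The consensus matched in 6 of the 7 genes (8 of the 10 windows), against 8.46% of all 32851 windows and 9.55% of all 27025 genes with a window. Rela was the gene with no match in its window. Capitals mark the matches, with overlapping matches run together, and each sequence reads 5′ to 3′ on the strand of the gene.
Nfkbie: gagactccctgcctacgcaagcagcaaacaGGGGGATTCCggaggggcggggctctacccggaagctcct
Rel: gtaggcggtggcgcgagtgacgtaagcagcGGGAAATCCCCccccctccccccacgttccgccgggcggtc
Bcl3: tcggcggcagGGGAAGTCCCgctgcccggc
Tnfaip3, farther match: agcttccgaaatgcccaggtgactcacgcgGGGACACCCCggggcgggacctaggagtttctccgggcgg
Tnfaip3, nearer match: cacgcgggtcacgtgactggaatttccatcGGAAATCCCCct
Nfkbia: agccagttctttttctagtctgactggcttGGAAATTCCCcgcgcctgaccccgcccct
Nfkb2: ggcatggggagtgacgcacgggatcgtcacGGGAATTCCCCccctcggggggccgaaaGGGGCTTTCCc

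The Nfkbie stretch lies at chr17:45555564-45555633 on the plus strand, with the match at -106 to -97 from the start. The Rel stretch lies at chr11:23771021-23771091 on the minus strand (-92 to -82) and the Bcl3 stretch at chr7:19822734-19822763 on the minus strand (3 to 12, after the start). Those of Tnfaip3 lie at chr10:19015496-19015565 (-125 to -116) and chr10:19015411-19015452 (-12 to -3), both on the minus strand. The Nfkbia stretch lies at chr12:55492648-55492706 on the minus strand (-29 to -20) and that of Nfkb2 at chr19:46304668-46304736 on the plus strand (-39 to -29 and -11 to -2). Further Nfkb2 stretches with matches, at chr19:46305449-46305478 and chr19:46305695-46305724, lie after a listed start of the gene and are not shown. The core letters of NFAT binding sites, GGAAA, matched on either strand in 5 of the 7 genes, against 64.4% of all genes with a window. They overlapped a kappa B match in Rel, Nfkbia, Nfkb2 and the nearer match of Tnfaip3. The longer form GGAAAA was in none of the 10 windows, against 23.4% of all windows. Such matches describe the letters only, and binding was not measured.

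All values below are log2 of MAS5 signals, so a difference of 1 is a doubling, and their precision is limited by the number of arrays. Comparisons used limma, and a gene was called where its Benjamini-Hochberg adjusted p over all 14318 genes was under 0.05. The fit counted the arrays as independent, without a term for replicate number (a block), unless one is named. Calls that blocks added are given at the end. The B cell list (5 of 6 markers measured, among them Ms4a1 and Cd79b) had a summed level of 16.25 to 16.61 at 0 h and 14.69 to 15.32 at the later times, so B cell genes were present throughout and lower after stimulation. From 0 to 3 h the range of the summed level over both genotypes went from 8.30-9.44 to 9.46-10.06 for the T cell list (7 of 8 measured), the list that was higher at 3 h without overlap, and from 11.95-13.43 to 10.48-12.53 for the macrophage list (6 of 6). It went from 7.37-10.76 to 6.83-9.03 for NK cells (3 of 4), from 9.60-12.31 to 9.23-11.60 for neutrophils (6 of 6), from 8.32-9.21 to 8.74-9.60 for dendritic cells (4 of 4) and from 4.55-6.41 to 3.43-6.23 for erythroid cells (2 of 4). Averaged over the 24 arrays, the T cell genes Cd3e, Cd3g, Cd3d and Cd4 and the macrophage gene C1qa (4.29, 4.43, 4.09, 3.38 and 2.43) lay under the 40th percentile of every array (5.38 to 6.42). The T cell genes Cd8a and Cd5 (7.41 and 7.86) and the macrophage genes Lyz2, Csf1r, Adgre1 and Cd14 (11.03, 8.95, 8.53 and 7.40) lay above it. So did the neutrophil genes S100a8, Mpo, Elane, S100a9 and Ngp (8.84, 8.65, 7.87, 7.70 and 7.32). The dendritic cell genes Flt3 and Zbtb46 (7.33 and 7.04) and the NK cell gene Gzma (6.54) did too. Other genes of these lists did not. The dendritic cell gene Siglech (4.88), the NK cell gene Ncr1 (4.56) and the erythroid genes Hba-a1 and Alas2 (4.24 and 2.91) lay under every array's percentile. Within its range lay Itgax (dendritic, 6.03), Nkg7 (NK, 5.85), Cd247 (T cell, 5.40), C1qb (macrophage, 5.63) and Camp (neutrophil, 5.72). No gene of these lists was at 0 on any array. The part of these lists in the changes below was not tested, and in bulk samples fewer cells of a type and less RNA per cell cannot be told apart. All 4 WT arrays of replicate 2 had male-type expression of the sex-linked genes (Xist 6.17 to 6.62 against 13.27 to 14.54 elsewhere). The brightest Nfatc1 probe set was 0.56 higher in KO than WT cells on average (SE 0.0628, limma adjusted p = 1.12e-05), and where it lies relative to the deleted exon is not given, so it checks nothing about the labels. The other Nfatc1 probe sets were higher in KO cells on average by 0.24, 0.11, 0.19 and 0.15, and none of these was called.

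Within 3 h of stimulation the B cells held more RNA for the subunits c-Rel and RelB and for the inhibitor IkB epsilon, and less for the cofactor BCL-3, in WT and in KO cells alike. Rel and Nfkbie stayed above and Bcl3 stayed below their 0 h levels at 8 and 16 h. In the fit without a block, Rela, Nfkb2 and Nfkbia did not pass the test at any time after stimulation, on any of their probe sets. In WT cells 3 of the 9 genes rose at 3 h (Rel, Relb, Nfkbie), where 17% of all genes tested did, and 1 fell (Bcl3), where 21.3% did. In KO cells 4 rose (those 3 and Tnfaip3; 16.6% of all genes) and 1 fell (Bcl3; 21.7%). The median difference of the 9 genes at 3 h was 0.20 in WT and 0.65 in KO cells, beside -0.14 and -0.11 over all genes. Later comparisons with 0 h use the same 0 h arrays, so the counts at 3, 8 and 16 h are not separate evidence.

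**Figure D1:**
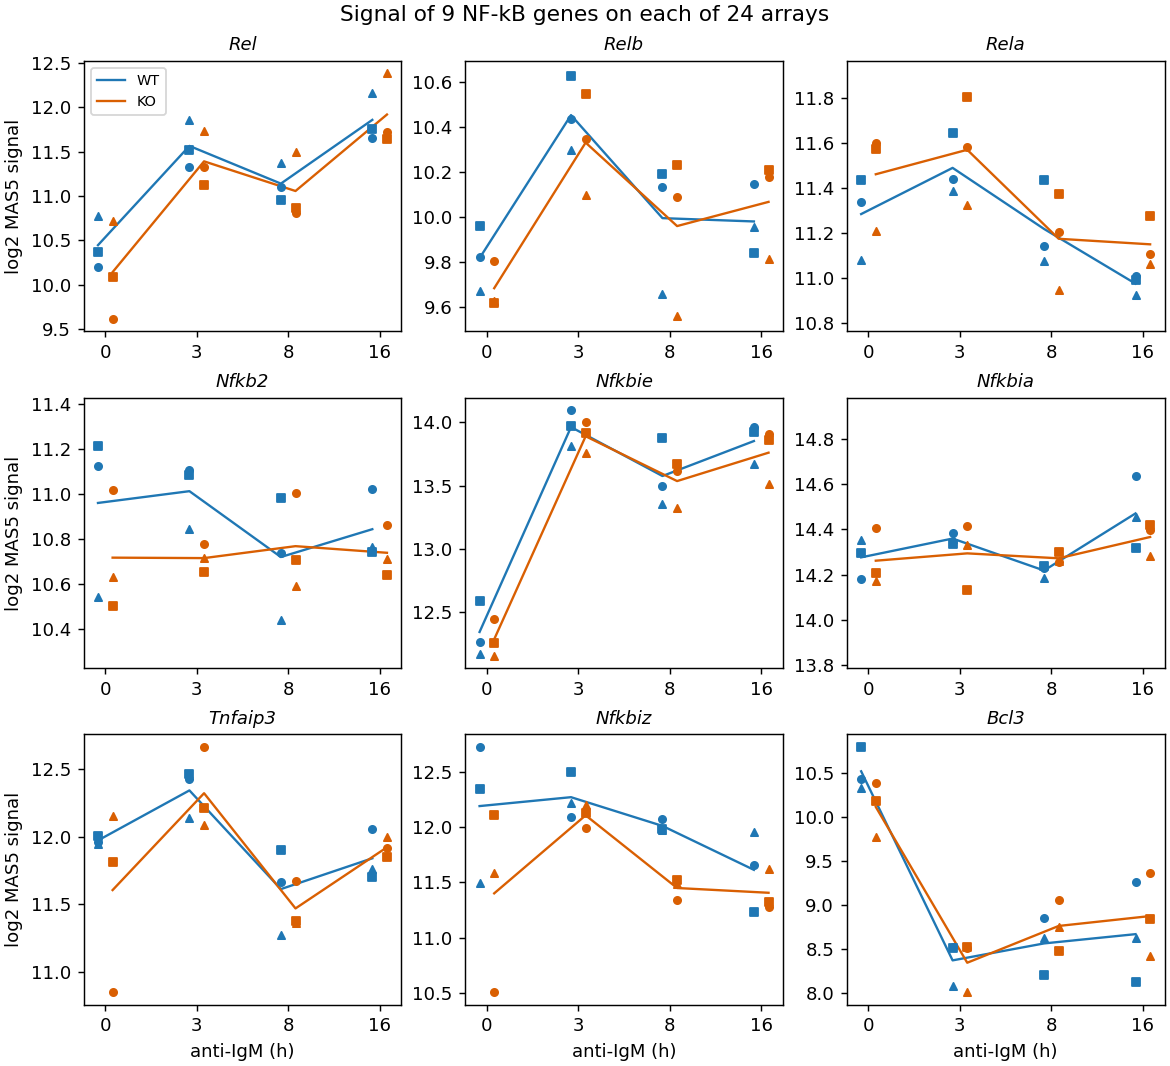
Log2 MAS5 signal (vertical axis, a separate range for each gene) of the 9 measured genes on each of the 24 arrays against hours of anti-IgM (the 4 times are evenly spaced), with WT in blue and KO in orange. Circles, squares and triangles are replicates 1, 2 and 3 and lines join the group means: Nfkbie went from means of 12.35 (WT) and 12.29 (KO) at 0 h to 13.96 and 13.89 at 3 h, and Bcl3 from 10.52 and 10.11 to 8.37 and 8.35.

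Among the subunits, Rel, whose product c-Rel drives survival and division of activated B cells, changed most. In WT cells its signal was 10.20, 10.36 and 10.77 at 0 h, 11.32, 11.52 and 11.85 at 3 h, 11.10, 10.95 and 11.37 at 8 h, and 11.65, 11.76 and 12.16 at 16 h. KO cells gave 9.61, 10.09 and 10.72 at 0 h, 11.32, 11.12 and 11.73 at 3 h, 10.81, 10.86 and 11.50 at 8 h, and 11.73, 11.65 and 12.38 at 16 h. No stimulated array of either genotype was as low as any 0 h array of that genotype, and replicate 3 was the highest array in all 8 groups. The rise at 3 h was 1.12 in WT (SE 0.252, 2.17-fold, limma adjusted p = 0.000895) and 1.25 in KO cells (2.38-fold, limma adjusted p = 0.000292). At 16 h it was 1.41 in WT (2.66-fold, limma adjusted p = 6.35e-05) and 1.78 in KO cells (3.43-fold, limma adjusted p = 4.03e-06). The level at 8 h lay between those at 0 and 3 h. Its rise over 0 h was 0.69 in WT (limma adjusted p = 0.0364) and 0.91 in KO cells (limma adjusted p = 0.00651). The WT call at 8 h was lost on leaving out any of 4 arrays (WT 0 h replicates 1 and 2, WT 8 h replicates 1 and 3), where the rise ranged from 0.57 to 0.71, without the 4 male-type arrays (0.75, limma adjusted p = 0.119), and with limma's trend left out (limma adjusted p = 0.0706). The KO call at 8 h was lost without KO 0 h replicate 1 (0.65, limma adjusted p = 0.0663) or KO 8 h replicate 3 (0.69, limma adjusted p = 0.0558). In the order 0, 8, 3 and 16 h, the neighbours 8 and 3 h did not differ past the threshold. From 8 to 16 h the differences of 0.72 in WT (limma adjusted p = 0.0856) and 0.86 in KO cells (limma adjusted p = 0.0501) missed it.

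Relb, which encodes the subunit RelB of the slower, alternative NF-kB pathway, had a rise that was called at 3 h. Without a block in the fit it was called at no later time. Its WT signal was 9.82, 9.96 and 9.67 at 0 h, 10.43, 10.62 and 10.30 at 3 h, 10.13, 10.19 and 9.66 at 8 h, and 10.14, 9.84 and 9.95 at 16 h. In KO cells the values were 9.80, 9.62 and 9.63, then 10.35, 10.55 and 10.09, then 10.09, 10.23 and 9.56, and finally 10.18, 10.21 and 9.81. The 3 h arrays of each genotype lay above its 0 h arrays, and the 8 h arrays overlapped the 0 h arrays in both. The rise at 3 h was 0.63 in WT (1.55-fold, SE 0.174, limma adjusted p = 0.00508) and 0.65 in KO cells (1.57-fold, limma adjusted p = 0.00444). Differences from 0 h at 16 h were 0.16 in WT (limma adjusted p = 0.525) and 0.38 in KO cells (limma adjusted p = 0.0943). With a fixed block for replicate number or a random block for genotype and number, the KO rise was called (limma adjusted p = 0.0139 and 0.0365).

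Rela, which encodes the widely expressed subunit p65, was not called at any time without a block in the fit. Its 0 h arrays read 11.34, 11.44 and 11.08 in WT and 11.60, 11.58 and 11.21 in KO cells, and its 16 h arrays 11.01, 10.99 and 10.93 in WT and 11.11, 11.28 and 11.06 in KO cells. The WT arrays at 16 h lay below those at 0 h and the KO arrays overlapped them. The difference was -0.31 in both genotypes (limma adjusted p = 0.0937 in WT and 0.0971 in KO). With the fixed or the random block it was called in WT (limma adjusted p = 0.00471 and 0.028) and in KO cells (0.00492 and 0.029). For Nfkb2, whose product is the precursor of the alternative pathway, the differences from 0 h ranged from -0.24 (WT at 8 h) to 0.05 (WT at 3 h). Its WT arrays spread from 10.54 to 11.21 at 0 h, which covers every group mean of the gene. The other Nfkb2 probe set was not called at any time.

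Among the inhibitors, Nfkbie, whose product IkB epsilon holds c-Rel and p65 dimers in the cytoplasm, rose in every comparison with 0 h. WT arrays read 12.27, 12.59 and 12.17 at 0 h, 14.10, 13.97 and 13.81 at 3 h, 13.49, 13.87 and 13.36 at 8 h, and 13.96, 13.92 and 13.67 at 16 h. KO arrays read 12.45, 12.26 and 12.16, then 14.00, 13.91 and 13.75, then 13.61, 13.67 and 13.32, and at 16 h 13.90, 13.86 and 13.51. The lowest stimulated array, 13.32, stood above the highest 0 h array, 12.59. At 3 h the rise was 1.62 in WT (SE 0.147, 3.07-fold, limma adjusted p = 4.66e-09) and 1.60 in KO cells (3.03-fold, limma adjusted p = 5.53e-09). It was 1.23 and 1.25 at 8 h and 1.51 and 1.47 at 16 h in WT and KO cells, 2.35- to 2.84-fold, with limma adjusted p of at most 3.88e-07. The neighbouring times 8 and 16 h, and 8 and 3 h, did not differ past the threshold in either genotype. The other Nfkbie probe set was called at all 3 times too, with rises of 1.73, 1.32 and 1.53 in WT and 1.62, 1.21 and 1.39 in KO cells.

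Nfkbia, which encodes IkB alpha, the classical feedback inhibitor, gave a nearly flat signal on its brightest probe set, with array values from 14.13 to 14.64. Differences from 0 h ranged from -0.06 to 0.20 and none was called. Of its 4 other probe sets none was called at any time either, and the third brightest differed from 0 h by 0.28 in WT and 0.25 in KO cells at 3 h (limma adjusted p = 0.15 and 0.199 over all probe sets). The kappa B matches in the promoter stretches shown above stand beside genes of each kind. Nfkbia and Nfkb2 were not called against 0 h at these times. Nfkbie and Rel were called higher and Bcl3 lower, and Tnfaip3 was called higher in KO cells at 3 h alone.

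Tnfaip3 encodes A20, an enzyme that edits ubiquitin chains and shuts off signalling above the IkB kinase. WT arrays read 11.96, 12.00 and 11.95 at 0 h, 12.42, 12.47 and 12.14 at 3 h, 11.66, 11.90 and 11.27 at 8 h, and 12.06, 11.70 and 11.76 at 16 h. KO arrays read 10.85, 11.82 and 12.15 at 0 h, 12.67, 12.21 and 12.09 at 3 h, 11.67, 11.38 and 11.36 at 8 h, and 11.92, 11.85 and 12.00 at 16 h. The highest group was 3 h and the lowest stimulated group 8 h in both genotypes, and KO 0 h replicate 1 lay 0.97 below the next array of its group. The difference at 3 h was 0.37 in WT (limma adjusted p = 0.21) and a called rise of 0.72 in KO cells (1.65-fold, limma adjusted p = 0.0122). Without KO 0 h replicate 1 the KO rise was 0.34 and no longer called (limma adjusted p = 0.158), and without KO 3 h replicate 1 it was 0.55 (limma adjusted p = 0.089). With only the KO 0 h and 3 h arrays in the fit the rise had a limma adjusted p of 0.0839. From 3 to 8 h Tnfaip3 fell by 0.73 in WT (SE 0.222, limma adjusted p = 0.0267) and by 0.85 in KO cells (limma adjusted p = 0.0081), and the arrays of the 2 times did not overlap. The WT call was lost on leaving out any of 4 arrays (WT 3 h replicates 1 and 2, WT 8 h replicates 1 and 3), where the difference ranged from -0.76 to -0.56, and without the 4 male-type arrays (-0.81, limma adjusted p = 0.0776). The KO call was lost without KO 3 h replicate 1 (-0.68, limma adjusted p = 0.0642). On the other Tnfaip3 probe set the KO changes were 1.00 at 3 h (limma adjusted p = 0.00592) and -1.17 from 3 to 8 h (limma adjusted p = 0.00535), while the WT change from 3 to 8 h, -0.74, was not called.

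Nfkbiz and Bcl3 encode atypical IkB proteins that act in the nucleus, where they bind NF-kB dimers and change which genes they transcribe. Bcl3 was the member that fell. WT arrays went from 10.43, 10.80 and 10.32 at 0 h to 8.52, 8.51 and 8.08 at 3 h, and stood at 8.86, 8.21 and 8.63 at 8 h and at 9.26, 8.13 and 8.62 at 16 h. KO arrays went from 10.39, 10.18 and 9.77 to 8.51, 8.52 and 8.01, and stood at 9.06, 8.48 and 8.75 and then at 9.36, 8.84 and 8.42. Every stimulated array lay below every 0 h array, the closest being 9.36 and 9.77, both KO. At 3 h Bcl3 fell by 2.15 in WT (SE 0.268, 4.42-fold lower, limma adjusted p = 6.22e-07) and by 1.77 in KO cells (3.40-fold lower, limma adjusted p = 9.5e-06). At 16 h it was still lower, by 3.60-fold in WT (limma adjusted p = 4.37e-06) and 2.36-fold in KO cells (limma adjusted p = 0.000657). The 3 stimulated times did not differ past the threshold from their neighbours. Mean marker sums of B cells, macrophages, NK cells, neutrophils and erythroid cells also fell from 0 to 3 h in both genotypes. Those of T cells and dendritic cells rose.

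Nfkbiz was the least even of the 9 genes. WT arrays read 12.73, 12.35 and 11.50 at 0 h, 12.09, 12.50 and 12.22 at 3 h, 12.08, 11.98 and 11.98 at 8 h, and 11.65, 11.23 and 11.95 at 16 h. KO arrays read 10.51, 12.11 and 11.59 at 0 h, 11.99, 12.13 and 12.20 at 3 h, 11.34, 11.52 and 11.49 at 8 h, and 11.27, 11.33 and 11.62 at 16 h. The 0 h groups had the widest spread (SD 0.63 in WT and 0.82 in KO, n = 3), and no difference from 0 h was called. At 16 h the WT differences from 0 h were -0.58, -0.95 and -0.51 from the brightest to the dimmest probe set, while the KO differences were 0.01, -1.10 and -0.27. On the second brightest the signal at 16 h was lower than at 0 h by 0.95 in WT (difference -0.95, limma adjusted p = 0.0123) and 1.10 in KO cells (difference -1.10, limma adjusted p = 0.00477). In KO cells it was also lower at 8 h (difference -0.83, limma adjusted p = 0.0358), and on the dimmest no change was called.

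**Figure D2:**
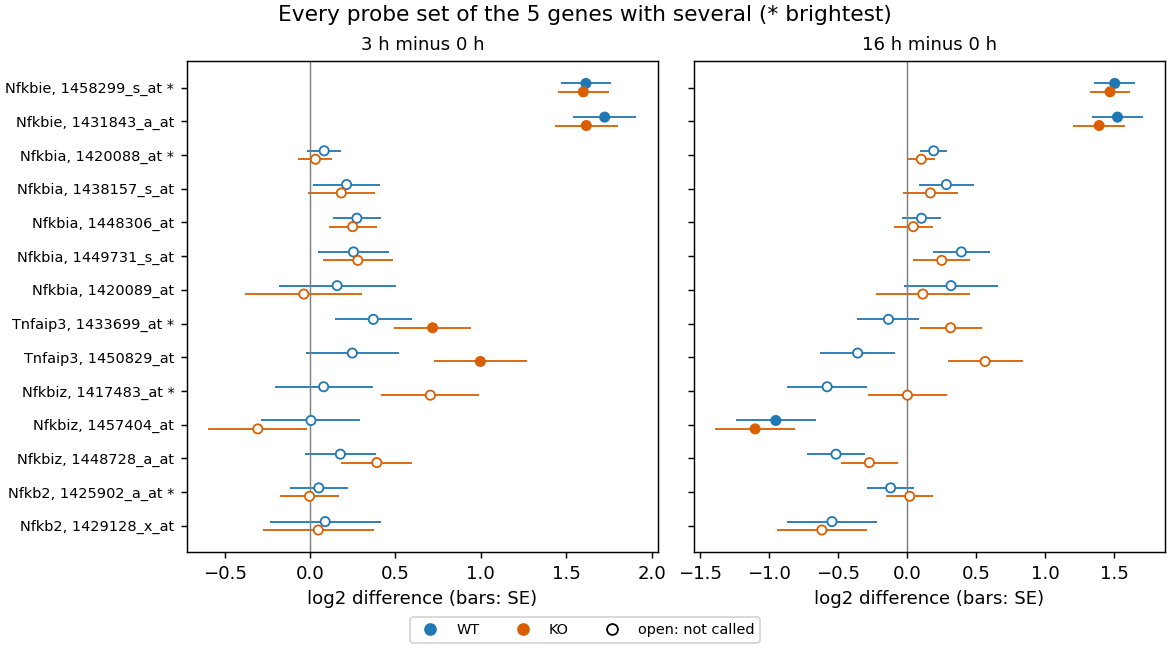
Log2 difference from 0 h at 3 h and 16 h (horizontal axes, bars are standard errors) for the 14 probe sets of the 5 genes with several, with an asterisk on the brightest, WT in blue, KO in orange and open circles for differences that were not called. Both Nfkbie probe sets sat between 1.39 and 1.73, all 5 of Nfkbia between -0.04 and 0.40 with open circles, and the second brightest of Nfkbiz (1 row below the asterisk) at -0.95 and -1.10 at 16 h.

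At 8 h, 2 genes were above 0 h in each genotype (Rel and Nfkbie), where 17.7% of all genes were in WT and 17.3% in KO cells. Bcl3 alone was below, beside 15.7% of all genes in WT and 14.4% in KO cells. At 16 h the same 2 genes were above 0 h in each genotype, beside 20.9% of all genes in WT and 19.4% in KO cells, and Bcl3 was below, beside 18.5% and 16.4%. Between 3 and 8 h no member rose (10.3% of all genes did in WT and 13.2% in KO cells) and Tnfaip3 fell in each genotype, beside 5.57% of all genes in WT and 6.01% in KO cells. From 8 to 16 h limma called 0 of the 9 genes in either genotype, with 2 in WT and 1 in KO cells at an unadjusted p under 0.05. In that interval 3.83% of all genes rose and 3.92% fell in WT, and 2.4% and 2.26% in KO cells. With only 9 genes, the counts of 2 to 4 risers and 1 faller are not read as departing from these shares, and the results rest on the single genes and their sizes.

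**Figure D3:**
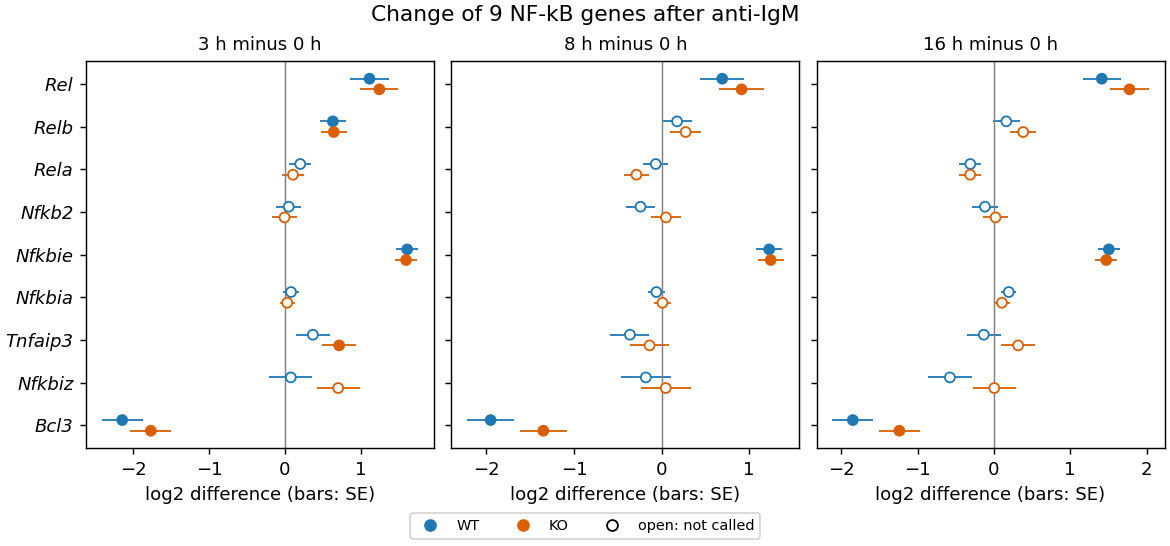
Log2 difference from 0 h (horizontal axes, bars are standard errors) of the 9 genes at 3, 8 and 16 h, with WT in blue and KO in orange and filled circles for called differences. Rel and Nfkbie lie right of 0 and Bcl3 left of 0 at all 3 times in both genotypes, and Relb is filled at 3 h alone (0.63 in WT, 0.65 in KO).

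The question for the genotype is whether B cells without NFATc1 hold other levels of these genes. In limma's comparison of KO with WT cells 0 of the 9 genes were called at 0, 3, 8 or 16 h, where 0.0349%, 0.0559%, 0.0978% and 0.615% of all genes were called. Averaged over the 4 times none was called either, beside 1.21% of all genes. That fit counts the 4 times of a replicate as independent arrays. With genotype and replicate number as a random block, 46 of all genes were called on average in place of 173. On the brightest probe sets Nfkbiz at 0 h and on average had an unadjusted p under 0.05, and no other member did. Among the other probe sets, that of Tnfaip3 was lower in KO cells by 0.83 at 0 h (KO arrays 9.16, 10.90 and 10.56, all below the WT arrays with their mean of 11.03, limma's unadjusted p = 0.00592, limma adjusted p = 1). Its averaged difference was -0.33 (limma's unadjusted p = 0.0247, limma adjusted p = 0.473). The third brightest probe set of Nfkbia, the one to which the probe table gives a RefSeq transcript, differed by -0.21 on average (limma's unadjusted p = 0.00736, limma adjusted p = 0.27). None of these was called. The 95% intervals of the averaged differences of the 9 genes together ran from -0.73 to 0.27, that is from 0.605- to 1.21-fold. The averaged difference was below 0 for 8 of the 9 genes, Rela being the exception at 0.10, with a median of -0.07 beside 0.02 over all genes. For Nfkbie it was -0.07 (SE 0.0733, limma adjusted p = 0.887), for Rel -0.13 (SE 0.126, limma adjusted p = 0.864), and for Bcl3 -0.01 (SE 0.134, limma adjusted p = 0.995).

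Nfkbiz had the widest genotype difference among the brightest probe sets. Its KO mean was below its WT mean at all 4 times, with 11.40 against 12.19 at 0 h, and the KO arrays at 8 h (11.34 to 11.52) all lay below the WT arrays (11.98 to 12.08). Among the brightest probe sets, KO and WT arrays were also separate for Nfkb2 at 3 h (lower in KO cells). So were those of Nfkbia at 8 h and Rela at 16 h (both higher in KO cells), and none was called. The share of all genes with such a separation was not computed. The averaged Nfkbiz difference was -0.43 (SE 0.142, 95% interval -0.73 to -0.14, limma's unadjusted p = 0.00613), which missed the threshold over all genes (limma adjusted p = 0.19). This fit counts all arrays as independent, so the SE and interval may be too narrow where the times of a replicate vary together. The 0 h difference of -0.79 (limma adjusted p = 1) was -0.34 without KO 0 h replicate 1 and -0.52 without WT 0 h replicate 1. Averaged differences on the other Nfkbiz probe sets were -0.39 (the second brightest) and -0.18 (the dimmest), and neither was called. The averaged difference of the brightest Nfkbiz probe set was not called under any of 13 other settings, both blocks among them. It was also not called in 23 of the 24 fits with 1 array left out. Over all these fits the limma adjusted p reached 0.847. The exception was leaving out KO 0 h replicate 2, which gave an adjusted p of 0.0492 in limma, with a difference of -0.52. KO 0 h replicate 1, the lowest array of Nfkbiz, was also the lowest KO array of Tnfaip3 and of Rel.

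**Figure D4:**
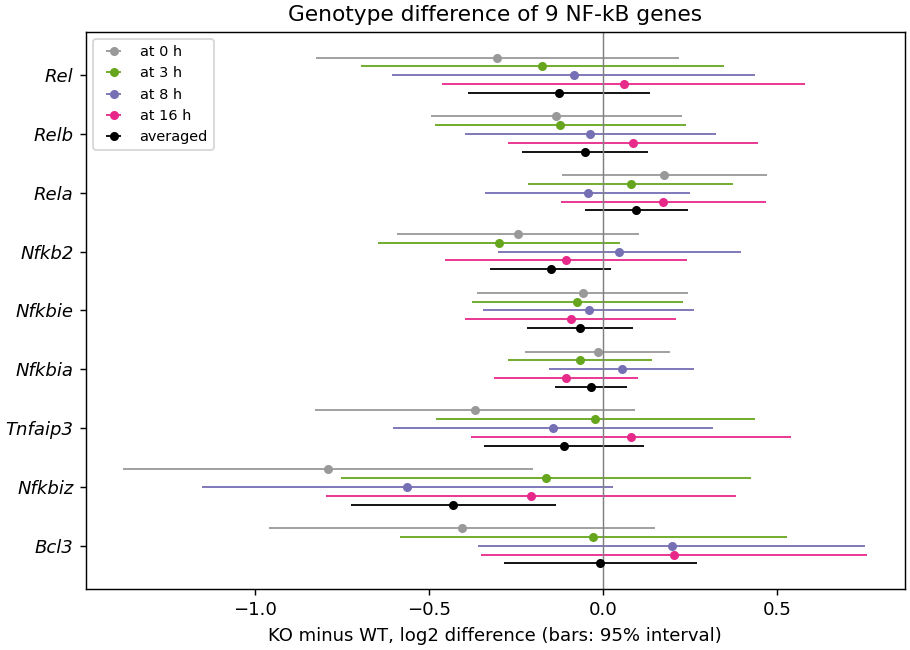
KO minus WT log2 difference (horizontal axis, bars are 95% intervals from limma) of the 9 genes at each of the 4 times and averaged over them (black). No difference was called after adjustment over all genes. In this fit, which counts all arrays as independent, the averaged interval of Nfkbiz, -0.73 to -0.14, is the only averaged one of the 9 that does not reach 0.

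The response to stimulation was compared between the genotypes by the difference of the changes. Limma called 0 of the 9 genes in the change to 3, 8 or 16 h (0%, 0% and 0.021% of all genes were called) and 0 in the F-test of the 3 changes together (0.014% of all genes). On its brightest probe set none of the 9 had an unadjusted p under 0.05 in any of these tests, where 401 of all genes did in the F-test, and the smallest F-test p among the 9 was 0.356. The other Tnfaip3 probe set had a difference in the change to 16 h of 0.92 (limma's unadjusted p = 0.0249, limma adjusted p = 1). Among the brightest probe sets the widest difference in the change was that of Nfkbiz at 3 h, 0.62 (SE 0.403, limma adjusted p = 1). The fall of Bcl3 was smaller in the KO means than in the WT means, with differences of the changes of 0.38 (3 h), 0.60 (8 h) and 0.61 (16 h, SE 0.38, unadjusted p from 0.122 to 0.33 in limma), which did not pass. For Nfkbie the differences of the changes were -0.02, 0.02 and -0.03 in the order of the times (SE 0.207).

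Upstream of the subunits, genes that carry the receptor signal to the IkB kinase were more often lower than higher after stimulation. Of 12 measured of 15, 2 rose and 8 fell at 3 h in WT cells (1 and 7 in KO), none rose and 6 fell at 8 h (the same counts in KO), and 1 rose and 8 fell at 16 h (1 and 8 in KO). Over all genes in WT, 17% rose and 21.3% fell at 3 h, 17.7% and 15.7% at 8 h, and 20.9% and 18.5% at 16 h. Their median difference in WT was -0.47 at 3 h, beside -0.14 over all genes, and -0.55 at 16 h, beside 0.05. Birc2, a ubiquitin ligase that keeps the alternative pathway off, changed by -1.05 at 3 h, and Map3k14, the kinase that starts that pathway, by -1.29 at 16 h. Prkcb, protein kinase C beta, changed by -0.73 at 3 h and -0.89 at 16 h. Malt1, a protease on the way from the receptor to the IkB kinase, changed by -1.37 at 16 h, and Tab2, an adaptor that links ubiquitin chains to the IkB kinase's activator, by -0.81. The ubiquitin ligase Traf6 was higher at 3 h (0.73). In KO cells Birc2 and Prkcb gave -0.94 and -0.77 at 3 h and Map3k14 -1.05 at 16 h, and none of the 12 was called between genotypes.

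Of 16 measured of 17 other inhibitors and regulators, 5 rose and 5 fell at 3 h in WT cells (5 and 5 in KO), 3 rose and 5 fell at 8 h (4 and 3 in KO), and 6 rose and 7 fell at 16 h (5 and 6 in KO), beside the shares of all genes just given. The WT median was -0.21 at 3 h, beside -0.14 over all genes. Tnip2, which binds A20, rose by 1.25 at 3 h and 1.29 at 16 h, and Rnf11, a partner of A20, by 1.25 at 3 h. Cyld, a deubiquitinase that restrains the pathway, changed by -1.09 at 3 h and -1.07 at 16 h. Pdlim2, a nuclear ubiquitin ligase for p65, changed by -1.09 at 3 h. Commd1, which limits p65 on chromatin, was higher at 16 h (1.03), and Usp18, a protease better known from the interferon response, was lower (-2.05, limma adjusted p = 0.0447). The remaining IkB genes, chosen for naming after their values were seen, were both called higher in WT cells at 3 h: Nfkbib (IkB beta) by 0.83 and Nfkbid (the nuclear IkBNS) by 1.06. Tax1bp1, an adaptor of A20, was the only gene of the 3 lists called between genotypes, 0.21 higher in KO cells on average (limma adjusted p = 0.0458). That call comes from the fit that counts the arrays as independent.

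Of 21 measured of 25 NF-kB target genes outside the family, 11 rose and 4 fell at 3 h in WT cells (12 and 3 in KO), 5 rose and 3 fell at 8 h (7 and 3 in KO), and 10 rose and 4 fell at 16 h (13 and 3 in KO). In WT cells 17%, 17.7% and 20.9% of all genes rose at these times, and 21.3%, 15.7% and 18.5% fell. Their median WT difference of 0.96 at 3 h stood beside 0.34 at 8 h and 0.65 at 16 h, so the lowest of the 3 was at 8 h. In group means 8 of the 9 members in WT and 7 in KO cells were also lower at 8 h than at 3 h. Of these only Tnfaip3 was called in the fit without a block. The chemokine genes Ccl3 and Ccl4 rose by 2.67 and 3.04 at 3 h, and by 3.55 and 3.16 in KO cells. Myc, a driver of growth, rose by 1.76 at 3 h, and Tnfrsf9, a receptor of the tumour necrosis factor family, by 2.09. At 16 h the survival gene Bcl2l1 had risen by 2.37, the cyclin gene Ccnd2 by 2.23 and Tnfrsf9 by 3.01, beside 1.97, 1.73 and 2.26 in KO cells. No target gene was called between genotypes at any time or on average.

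Other genes followed the members' group means closely, as a Pearson correlation over the 8 group means shows. These means share arrays and scaling with the member, so the values are descriptions. Nfkbie was most like Fam210a (0.997), Ipo7 (0.996) and Noc4l (0.996), and Bcl3 most like Heatr6 (0.996), Sec11c (0.994) and Plekhg2 (0.992). Rel was most like Tra2b (0.990), Aebp2 (0.988) and Grhl1 (0.987). For Relb the closest were Cdr2 (0.983), Myc (0.980) and Fxr2 (0.980), of which Myc is also on the target list, with means of 11.70, 13.46, 12.45 and 12.29 in WT cells at 0, 3, 8 and 16 h. The loosest first matches were those of Nfkbiz (Gm614, 0.932) and Nfkb2 (Raly, 0.954). The list for Nfkbiz also holds Nr4a2 (0.920), with means of 8.76 in WT and 7.13 in KO cells at 8 h.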

How the data were processed

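The authors made the signals with MAS5 (version not stated) per the submitters' processing notes, and deposited them on a log2 scale, 1 column per array. They were used as deposited. Probe sets had to exceed their array's 40th percentile on 3 or more of the 24 arrays, and the brightest probe set with 1 symbol represented each of 14318 genes. No detection calls were used, and sequencing depth does not apply. Testing was done in R 4.3.3 with limma 3.58.1 (a mean for each group, eBayes with trend, 16 residual degrees of freedom, Benjamini-Hochberg adjustment). The fit was tested on simulated data whose arrays were drawn as independent, so that test says nothing about arrays that vary together. Replicates correlated at 0.889 to 0.925 and no arrays were identical. Other probe sets were adjusted over all probe sets kept.

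The members and lists were chosen with earlier results of these data known. The text names every member, up to 4 genes of each pathway list with the largest called difference in WT at 3 h and at 16 h, the 3 genes most correlated with each member (a part of them printed), and marker genes. Alternatives covered normalization, filters, probe set choice, replicate blocks, the arrays in the fit, the trend and each array left out. Leaving out 3 groups of arrays (male-type, high background, replicate 3) was chosen after seeing the data. Promoter windows came from RefSeq (GRCm38.p6), which held no entry used here for Nfkb1, Relb and Nfkbiz.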

Additional observations from a re-analysis of the deposited data

How the results depend on the processing

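25 member results were recomputed under up to 13 other settings and with each of the 24 arrays left out, and none changed direction. Every call for Nfkbie and Bcl3, for Rel at 3 and 16 h and for Relb at 3 h held under all of them. The count of members called from 3 to 8 h moved most. In WT it was 1, and became 2 under quantile normalization, 0 with arrays scaled to the same median, 0 with the second brightest probe set, 5 with replicate number as a fixed block, 3 with genotype and replicate number as a random block, 0 without the trend and 0 without the replicate 3 arrays. In KO it was 1, and became 2 with a filter at the 60th percentile, 5 with the fixed block, 3 with the random block, 2 with only the compared groups and 2 without the 2 arrays of highest background. From 8 to 16 h the WT count of 0 became 1 with either block, with only the compared groups and without replicate 3, and the KO count of 0 became 1 with the 60th percentile filter, with either block and without replicate 3. At 16 h against 0 h the KO count of 3 became 5 with either block and without replicate 3, and the WT count of 3 became 5 without replicate 3. Leaving out single arrays gave 0 to 2 from 3 to 8 h in each genotype, 0 to 1 from 8 to 16 h in KO, 3 to 5 at 16 h in each, and 0 to 1 for KO minus WT averaged. The cause of these shifts was not tested.

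Same-number KO and WT arrays deviated from their group means together, though weakly. Their 12 pairs all correlated positively (0.0159 to 0.222), 3 of them over 0.1. The 24 different-number pairs ran from -0.182 to 0.123, 1 of them over 0.1. Replicate number as a fixed block raised the count of all genes called at 3 h in WT from 5486 to 6230. Arrays of 1 genotype and number correlated positively across times in all 6 such sets, from 0.02 to 0.0773 in WT replicate 1 up to 0.149 to 0.374 in KO replicate 2, so not every pair was over 0.1. Either block called Rela lower at 16 h than at 0 h in WT (fixed block limma adjusted p = 0.00471, random block 0.028) and in KO cells (0.00492 and 0.029). In KO cells either block also called Rela lower at 8 h than at 0 and 3 h. Against 0 h, either called Relb higher at 16 h and Nfkbiz higher at 3 h in those cells. Both called Rel higher at 16 h than at 8 h in each genotype. From 3 to 8 h both called Nfkbie lower in each genotype and Relb lower in WT cells. In that interval the fixed block alone called Rel lower in each genotype, Rela in WT and Relb in KO cells. The fit without a block made none of these calls. Neither block ended a call of that fit among the comparisons of times. Scaling arrays to the same median shifted the median of all genes by 0.24 in WT and 0.15 in KO cells at 3 h and ended 2 calls, Rel in WT at 8 h (0.85, limma adjusted p = 0.0545) and Tnfaip3 in WT from 3 to 8 h (-0.81, limma adjusted p = 0.0764). With 3 arrays per group, small differences could go undetected.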
